A study of Mus musculus with 6 samples.

Results

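The antioxidant genes described here are 37 mouse genes that the transcription factor NRF2 is known to control or that make and use glutathione and thioredoxin. They were chosen by name, and a probe was taken as theirs when its RefSeq transcript accession belonged to one of these symbols. All 37 were on the array, with 51 probes, and 35 entered the tests among 14876 genes in all. The other 2, the glutathione transferases Gsta1 and Gsta2, had a single probe each that was not well above background on any array.

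The cultures held mouse spermatogonial stem cells, from which sperm production is sustained, kept on mouse embryonic fibroblasts as feeder cells. The treated group received captopril at 0.01 M for 24 h (3 arrays), and the control group received sterile water for 24 h (3 arrays), for which the labels also write 0.01 M. Each array carries total RNA of a culture labelled as an independent experiment, numbered 2, 3 and 4 in both groups. The labels give no strain, age or genotype, and nothing says which animals the cultures came from, so p-values measure the spread between these cultures.

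Captopril inhibits angiotensin-converting enzyme and carries a free thiol group. NRF2 is held at a low level by the adaptor KEAP1, whose cysteines react with electrophiles and oxidants. Once released, NRF2 pairs with a small MAF protein at antioxidant response elements and switches on enzymes that make glutathione, reduce quinones, degrade haem and supply NADPH. Glutathione is made in a pair of steps, of which the first, carried out by glutamate-cysteine ligase, limits the rate.

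The antioxidant genes did not move as a block. Nqo1, a quinone reductase that serves widely as a sign of NRF2 activity, was higher on every captopril array than on every water array. Gclm, which encodes the modifier subunit of glutamate-cysteine ligase, was lower on every captopril array than on every water array. In RNA of whole cultures fewer cells of a type and less RNA per cell cannot be told apart, which holds for every value given here. Over all 6 arrays 17 of the 35 had a positive and 18 a negative log2 fold change (captopril minus water; 46.8% of all genes were positive), with a median of −0.004, against −0.03 for all genes tested. Scaling by the median of each array left 5 of the 35 positive, with a median of −0.31 against −0.33 for all genes. No member passed an adjusted p under 0.05 by limma over all genes, and no other gene did either (0% of 14876). At an unadjusted p under 0.05 there were 3 members, against 8.21% of all genes: Nqo1 was higher (3.31% of all genes were) and Gclc and Gclm were lower (4.91%). The groups did not overlap in 3 members, against 21.5% of all genes, with Nqo1 and Mgst1 higher (10% of all genes) and Gclm lower (11.4%).

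Water replicate 3 stood apart from the other arrays, with a correlation of 0.878 to 0.893 with them, while r among the other 5 arrays was 0.970 to 0.991 (over 32380 probes). The median SD of a gene on the log2 scale was 0.204 over the 3 captopril arrays and 0.449 over the 3 water arrays. Over water replicates 2 and 4 it was 0.108, though 2 arrays measure a spread poorly. Fold changes are therefore given also without this array, which leaves 3 captopril arrays against 2 water arrays. In that comparison 26 of the 35 members had a positive log2 fold change (58.5% of all genes did), with a median of 0.09 against 0.07 for all genes. Of the members, 1 passed an adjusted p under 0.05 (Nqo1, higher), as did 0.612% of all genes. At an unadjusted p under 0.05 there were 5 members (19.1% of all genes), 4 higher (12.1% of all genes) and 1 lower (6.98%). The groups did not overlap in 8 members (42.9% of all genes), of which 6 were higher (27.2% of all genes) and 2 lower (15.7%).

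**Figure D1:**
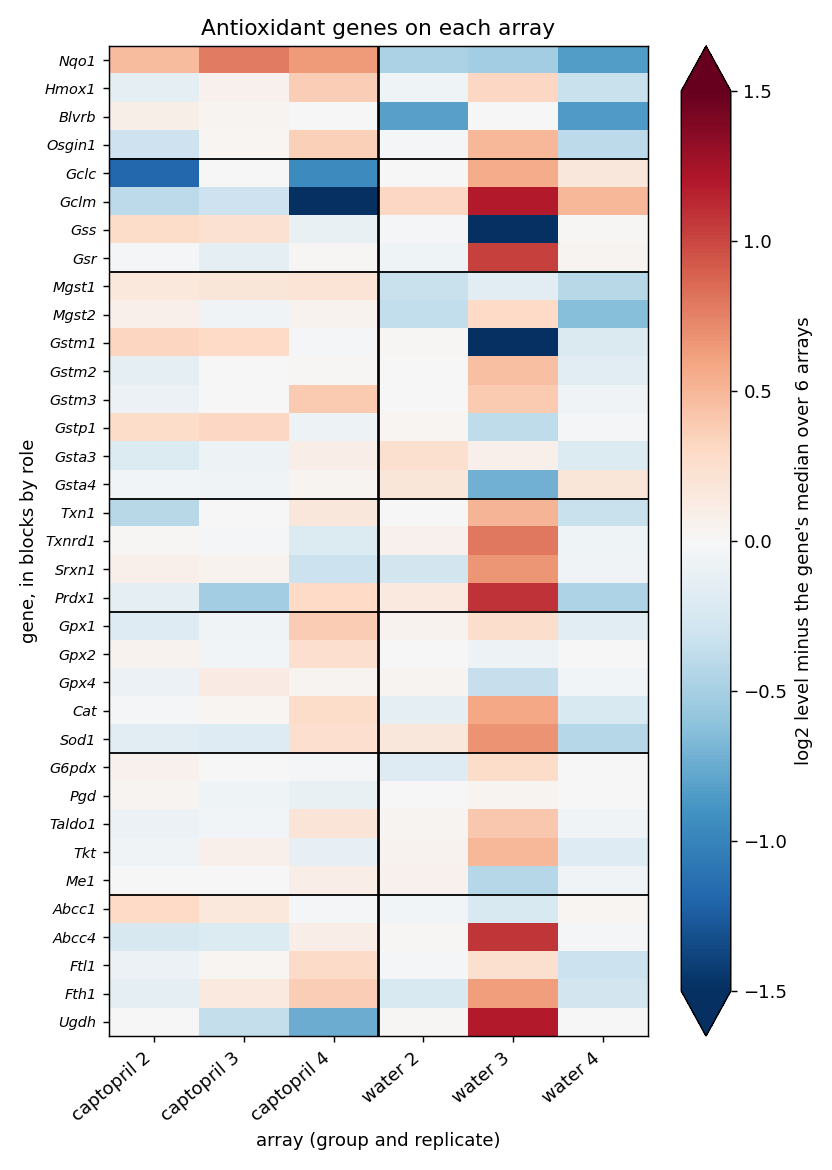
Level of each of the 35 measured genes (rows, in blocks by role) on each array (columns, captopril left of water), as log2 level minus the gene's median over the 6 arrays. Nqo1 is high on the 3 captopril arrays and Gclm low, while many rows have their extreme value on water replicate 3.

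Nqo1 (NM_008706) encodes NAD(P)H quinone dehydrogenase 1, which reduces quinones to hydroquinones and so keeps them from redox cycling. Its log2 level, relative to the 75th percentile of each array, was −1.03, −0.73 and −0.87 on captopril replicates 2, 3 and 4, against −1.99, −2.02 and −2.34 on water replicates 2, 3 and 4. The 2 groups lay well apart, and water replicate 3 fell between the other water arrays. The mean was −0.88 ± 0.15 (SD, n = 3) with captopril and −2.12 ± 0.20 (SD, n = 3) in water, a 2.36-fold difference (log2 fold change 1.24, SE 0.22, limma adjusted p = 0.455). Its p over 6 arrays ranked 23 of 14876 genes. Without water replicate 3 Nqo1 rose 2.44-fold (log2 fold change 1.29, SE 0.18, limma adjusted p = 0.043), where its p ranked 64. The array holds 1 probe for this gene.

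The call rests on the choice of arrays and of scaling, while the direction does not. When another of the 5 arrays was left out as well, the log2 fold change of Nqo1 was 1.11 to 1.47 and its adjusted p was 0.050 to 0.404. With scaling by the median of each array it was 1.16 (limma adjusted p = 0.055), and with quantile normalization 1.24 (limma adjusted p = 0.060). With no filter on dim probes the adjusted p was 0.105. On the slide, row 2 carried the captopril group together with water replicate 4, and row 1 carried water replicates 2 and 3. Within that row the log2 fold change was 1.47 for Nqo1, 0.89 for Blvrb, 0.59 for Mgst1, −0.88 for Gclc and −1.36 for Gclm, with no spread between water arrays behind these values.

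Hmox1 encodes haem oxygenase 1, which opens the haem ring to biliverdin, and Blvrb encodes biliverdin reductase B, which reduces flavins and some biliverdin isomers. Blvrb (NM_144923) stood at 3.62, 3.57 and 3.52 on captopril replicates 2, 3 and 4, against 2.71, 3.54 and 2.68 on water replicates 2, 3 and 4. Water replicate 3 lay among the captopril arrays, so the groups overlapped over 6 arrays (log2 fold change 0.59, SE 0.29, limma adjusted p = 0.619). Without that array the log2 fold change was 0.87 (SE 0.14), a 1.83-fold difference whose limma adjusted p = 0.055 missed the threshold. Over 13 alternatives of this comparison its adjusted p was 0.047 to 0.466 and passed the threshold in 3 of them (robust eBayes with a variance trend, averaged probes per gene, and a filter requiring signal on all 5 arrays).

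Hmox1 (NM_010442), among the most inducible NRF2 targets, overlapped between the groups on its reported probe. Its level was 3.27, 3.48 and 3.78 on captopril replicates 2, 3 and 4, against 3.35, 3.72 and 3.08 on water replicates 2, 3 and 4. The log2 fold change was 0.13 (95% confidence interval −0.50 to 0.75) over 6 arrays and 0.30 (−0.17 to 0.76) without water replicate 3. Its other probe stood at 2.58, 2.60 and 2.31 on the captopril arrays and at 2.18 and 1.92 on water replicates 2 and 4, but at −5.47 on water replicate 3, its only array not well above background. On that probe every captopril array was above every water array, with 2.95 (SE 1.96) over 6 arrays and 0.45 (SE 0.17) without water replicate 3. Osgin1, an NRF2 target that restrains cell growth, stood at −0.38, −0.04 and 0.30 on captopril replicates 2, 3 and 4, against −0.10, 0.43 and −0.46 on water replicates 2, 3 and 4. The values of both groups spread over the same range, with log2 fold changes of 0.01 (SE 0.31) over 6 arrays and 0.24 (SE 0.23) over 5.

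**Figure D2:**
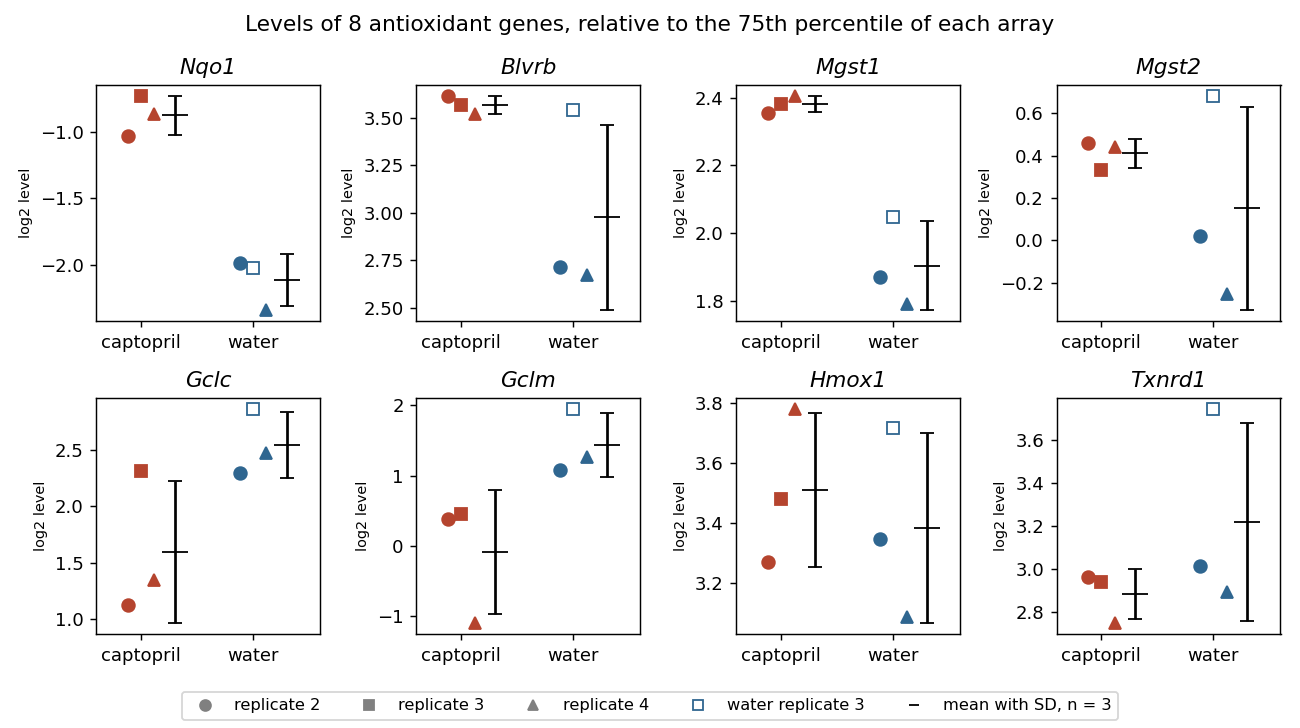
Log2 level of 8 genes on each array, relative to the array's 75th percentile, with captopril left and water right, the replicate shown by the symbol, water replicate 3 as an open square and the mean with SD (n = 3) in black. On the reported probes, Nqo1, Mgst1 and Gclm separate the groups on all 6 arrays, Blvrb and Mgst2 only without the open square.

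Of the 4 genes of glutathione synthesis and reduction none passed the test, and 3 had a negative log2 fold change in both comparisons. Gclm (NM_008129) stood at 0.38, 0.46 and −1.10 on captopril replicates 2, 3 and 4, against 1.08, 1.95 and 1.27 on water replicates 2, 3 and 4. All captopril arrays lay below all water arrays, with replicate 4 farthest below. The mean was −0.09 ± 0.88 (SD, n = 3) with captopril and 1.43 ± 0.46 (SD, n = 3) in water, which puts the log2 fold change at −1.52 (SE 0.47, limma adjusted p = 0.556). Without water replicate 3 the log2 fold change was −1.26 (SE 0.46, limma adjusted p = 0.212), and without captopril replicate 4 as well it was −0.75 (limma adjusted p = 0.070).

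Gclc (NM_010295) encodes the catalytic subunit of the same ligase. Its level was 1.12, 2.31 and 1.35 on captopril replicates 2, 3 and 4, against 2.29, 2.86 and 2.47 on water replicates 2, 3 and 4. Captopril replicate 3 lay just above water replicate 2, so the groups overlapped. The log2 fold change was −0.95 (SE 0.36, limma adjusted p = 0.591) over 6 arrays and −0.79 (SE 0.34, limma adjusted p = 0.273) without water replicate 3. Captopril replicate 3 was the highest captopril array for both subunits, whereas the lowest was replicate 4 for Gclm and replicate 2 for Gclc.

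Gss, glutathione synthetase, carries out the second step. It stood at 1.30, 1.26 and 0.92 on captopril replicates 2, 3 and 4, against 1.01, −2.01 and 1.04 on water replicates 2, 3 and 4. Its log2 fold change of 1.15 over 6 arrays (SE 0.79) came with water replicate 3, and without that array it was 0.13 (SE 0.17). Gsr, glutathione reductase, which restores glutathione from its oxidised form, stood at 3.13, 3.02 and 3.17 on captopril replicates 2, 3 and 4, against 3.08, 4.17 and 3.19 on water replicates 2, 3 and 4. Its log2 fold change was −0.38 (SE 0.33) over 6 arrays and −0.03 over 5 (95% confidence interval −0.37 to 0.31).

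Of the 10 glutathione transferases, which attach glutathione to electrophiles, 8 were measured. Their log2 fold changes ran between −0.14 and 1.03 over 6 arrays and between −0.20 and 0.55 without water replicate 3. The upper ends of these ranges belong to Gstm1 and to Mgst1. Mgst1 (NM_019946), a membrane-bound transferase with peroxidase activity, stood at 2.36, 2.38 and 2.41 on captopril replicates 2, 3 and 4, against 1.87, 2.05 and 1.79 on water replicates 2, 3 and 4. The captopril arrays were nearly alike and all above the water arrays, and the log2 fold change was 0.48 (SE 0.20, limma adjusted p = 0.607) over 6 arrays and 0.55 (SE 0.14, limma adjusted p = 0.110) over 5. The other probe of Mgst1 gave −0.10 (SE 0.29), with the opposite sign, and 0.12 (SE 0.20). It stood at 0.68, 0.55 and 0.15 on captopril replicates 2, 3 and 4, against 0.22, 1.01 and 0.47 on water replicates 2, 3 and 4. On that probe the groups overlapped, so the separation of Mgst1 holds for its reported probe only.

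Mgst2, a related membrane enzyme that also makes leukotriene C4, stood at 0.46, 0.33 and 0.44 on captopril replicates 2, 3 and 4, against 0.02, 0.68 and −0.25 on water replicates 2, 3 and 4. Water replicate 3 lay above every captopril array and the other water arrays below, with log2 fold changes of 0.26 (SE 0.29) over 6 arrays and 0.53 (SE 0.16, limma adjusted p = 0.154) over 5. Gstm1, a cytosolic mu-class transferase, stood at 2.69, 2.66 and 2.35 on captopril replicates 2, 3 and 4, against 2.38, 0.08 and 2.15 on water replicates 2, 3 and 4. Its log2 fold change was 1.03 (SE 0.59) over 6 arrays and 0.30 (SE 0.17) over 5, and its other probe gave 0.40 and 0.48. The mu-class genes Gstm2 and Gstm3, the pi-class gene Gstp1 and the alpha-class genes Gsta3 and Gsta4 had log2 fold changes between −0.20 and 0.17 over 5 arrays. Transferases of one class resemble each other in sequence, and whether their probes share targets was not tested.

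**Figure D3:**
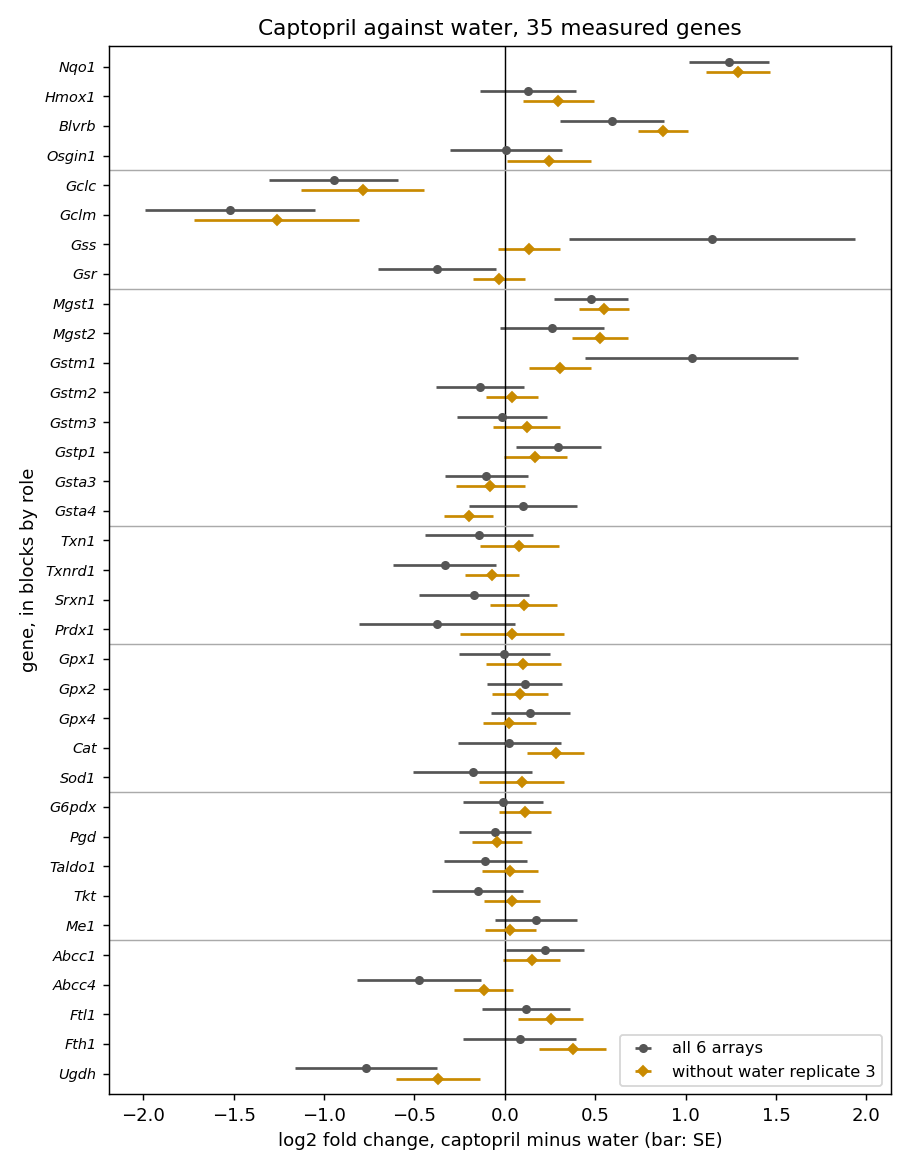
Log2 fold change (captopril minus water, bar = SE from limma) of the 35 measured genes, in blocks by role, over all 6 arrays (grey circles) and without water replicate 3 (yellow diamonds). Nqo1 lies farthest to the right in the comparison of 5 arrays at 1.29 and Gclm farthest to the left at −1.26, while 29 of the 35 diamonds lie within 0.5 of 0.

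The thioredoxin genes, which reduce protein disulphides and feed the peroxiredoxins, gave no separation. Txnrd1, thioredoxin reductase 1 and a classical NRF2 target, stood at 2.97, 2.94 and 2.75 on captopril replicates 2, 3 and 4, against 3.02, 3.75 and 2.89 on water replicates 2, 3 and 4. Its log2 fold change was −0.33 (SE 0.28) over 6 arrays and −0.07 over 5 (95% confidence interval −0.43 to 0.29). Srxn1, sulfiredoxin, which repairs overoxidised peroxiredoxin, stood at 2.29, 2.27 and 1.89 on captopril replicates 2, 3 and 4, against 1.93, 2.87 and 2.15 on water replicates 2, 3 and 4. Its log2 fold change was −0.17 (SE 0.30) over 6 arrays and 0.10 over 5 (95% confidence interval −0.33 to 0.54).

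Txn1, thioredoxin itself, stood at 3.90, 4.31 and 4.49 on captopril replicates 2, 3 and 4, against 4.32, 4.83 and 3.98 on water replicates 2, 3 and 4. Prdx1, a peroxiredoxin that removes hydrogen peroxide, stood at 5.17, 4.78 and 5.61 on captopril replicates 2, 3 and 4, against 5.45, 6.39 and 4.84 on water replicates 2, 3 and 4. In both genes the groups overlapped with and without water replicate 3. The log2 fold changes of Txn1 were −0.14 and 0.08 over 6 and 5 arrays, and those of Prdx1 were −0.37 and 0.04.

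Among the peroxidases, catalase and superoxide dismutase, all 5 log2 fold changes were between −0.18 and 0.14 over 6 arrays and between 0.03 and 0.28 over 5. Cat, catalase, stood at 4.68, 4.73 and 4.98 on captopril replicates 2, 3 and 4, against 4.56, 5.28 and 4.47 on water replicates 2, 3 and 4. Without water replicate 3 all captopril arrays were above both water arrays (0.28, SE 0.16, limma adjusted p = 0.368). Gpx4, the peroxidase that reduces lipid hydroperoxides in membranes, stood at 3.94, 4.15 and 4.08 on captopril replicates 2, 3 and 4, against 4.07, 3.68 and 3.99 on water replicates 2, 3 and 4. Its log2 fold change over 5 arrays was 0.03 (95% confidence interval −0.32 to 0.37).

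The genes of the pentose phosphate pathway and of NADPH supply were G6pdx, Pgd, Taldo1, Tkt and the malic enzyme Me1. Their log2 fold changes were −0.15 to 0.17 over 6 arrays and −0.04 to 0.11 over 5. The SE of these 5 genes was 0.14 to 0.16 over 5 arrays. Me1 depended on the probe. Its reported probe gave 0.17 and 0.03 over 6 and 5 arrays, another gave −0.27 and −0.01, and the remaining one gave −1.34 (SE 0.50) and −1.19 (SE 0.52). This last probe stood at 0.19, 0.41 and −1.44 on captopril replicates 2, 3 and 4, against 0.93, 1.35 and 0.89 on water replicates 2, 3 and 4. As with Gclm, all captopril arrays were below all water arrays and replicate 4 was the lowest.

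Fth1, the heavy chain of the iron store ferritin, stood at 4.45, 4.74 and 4.96 on captopril replicates 2, 3 and 4, against 4.36, 5.22 and 4.32 on water replicates 2, 3 and 4. Without water replicate 3 the captopril arrays were all higher (log2 fold change 0.37, SE 0.19, limma adjusted p = 0.319). The light chain gene Ftl1 gave 0.25 (SE 0.18) in that comparison. Ugdh, which makes the UDP-glucuronic acid used in conjugation, stood at 1.12, 0.76 and 0.37 on captopril replicates 2, 3 and 4, against 1.13, 2.31 and 1.11 on water replicates 2, 3 and 4. Captopril replicate 2 overlapped the water arrays, with log2 fold changes of −0.77 (SE 0.39, limma adjusted p = 0.625) over 6 arrays and −0.37 (SE 0.23) over 5. The exporters of glutathione conjugates Abcc1 and Abcc4 gave 0.22 and −0.47 over 6 arrays, and 0.15 and −0.12 over 5.

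Of the 12 genes with more than 1 measured probe, 8 had another probe that differed in sign or by over 0.5 from the reported one over 6 arrays, and 3 did without water replicate 3 (Gstm2, Me1 and Prdx1). The other probe of Cat gave 1.22 over 6 arrays and 0.03 over 5, that of Gstm3 gave 1.84 and 0.19, that of Gstp1 gave 0.97 and 0.29, and that of Prdx1 gave −0.46 and −0.10. The other probes of Gstm2 gave 0.51 and −0.67 over 6 arrays, and −0.22 and −0.33 over 5. On water replicate 3, 8 of 49 member probes lay more than 1 log2 unit below every other array and 3 lay more than 1 above, against 16.6% and 5.10% of 19299 named probes. The member probes far below were 1 each of Hmox1, Gstm3, Cat, Gss, Gstm1, Gstp1, Gstm2 and Ftl1. For Hmox1, Gstm3, Cat and Ftl1 the other probe of the same gene was above its own median over the other 5 arrays there, by 0.37, 0.40, 0.61 and 0.27. For Gstp1 it was below that median, at −0.41, for Gstm1 it was at 0.01, and for Gstm2 the other 2 probes were at 0.46 and 1.21.

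**Figure D4:**
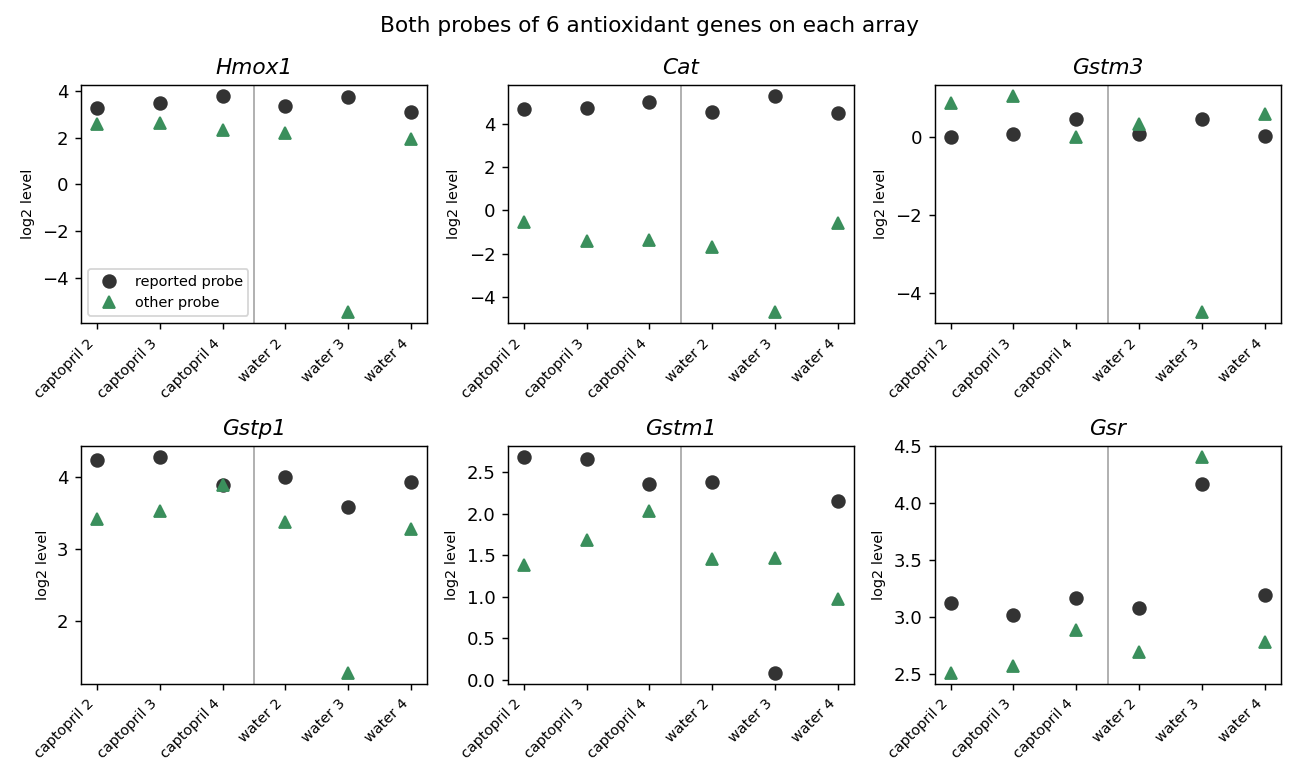
Log2 level of both probes of 6 genes on each array, captopril left of the line and water right of it, with the reported probe as black circles and the other as green triangles. On water replicate 3 the triangles of Hmox1, Cat, Gstm3 and Gstp1 and the circle of Gstm1 drop, while both probes of Gsr are at their highest.

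The upstream bases are shown for the 3 genes whose groups did not overlap over 6 arrays on the reported probe. Of these, Nqo1 on one side and Gclm on the other are both textbook NRF2 targets. The core of the antioxidant response element, TGAC and GC with 3 free bases between them, was searched on both strands in windows of 250 bases before to 50 after each start site (RefSeq, GRCm38.p6). The printed runs end at the base before the start site, 5′ to 3′ along the gene, with the fixed letters of a match in capitals. Nqo1 is chr8:107403206-107403455 on the minus strand, Gclm is chr3:122245307-122245556 on the plus strand, and Mgst1 is chr6:138140277-138140526 on the plus strand, the one of its 2 start sites with a match.
Nqo1: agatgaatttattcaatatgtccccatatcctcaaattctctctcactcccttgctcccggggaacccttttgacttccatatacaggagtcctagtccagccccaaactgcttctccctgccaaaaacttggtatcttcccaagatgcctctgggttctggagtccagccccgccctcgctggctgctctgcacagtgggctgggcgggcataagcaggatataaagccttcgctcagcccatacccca
Gclm: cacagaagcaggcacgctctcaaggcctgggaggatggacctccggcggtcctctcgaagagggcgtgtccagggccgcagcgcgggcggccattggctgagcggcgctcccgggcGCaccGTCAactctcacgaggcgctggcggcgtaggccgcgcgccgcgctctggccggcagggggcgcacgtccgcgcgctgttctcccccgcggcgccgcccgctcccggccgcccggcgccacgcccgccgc
Mgst1: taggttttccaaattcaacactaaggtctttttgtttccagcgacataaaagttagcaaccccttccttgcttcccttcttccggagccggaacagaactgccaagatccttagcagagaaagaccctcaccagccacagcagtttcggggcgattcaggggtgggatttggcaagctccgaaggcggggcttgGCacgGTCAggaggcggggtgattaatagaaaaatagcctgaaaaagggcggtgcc

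The Gclm window held a match on the opposite strand that starts at base −134 and the Mgst1 window one that starts at base −56. The Nqo1 window held none. Bases outside the windows were not searched, so an element farther from a start site would not be seen, for Nqo1 or any other gene. The windows differed in base composition, with 78.4% G and C before Gclm, 53.2% before Nqo1 and 52.0% before Mgst1. Promoter windows were given for 32 of the 37 genes, without Hmox1, Gclc, Gsr, Gsta4 and Abcc1. Of these 32 genes, 12 (37.5%) held a match in at least 1 window, against 13.99% of all 27025 genes in the table. The members were chosen in part as known NRF2 targets. A gene with more windows also had more room for a match (44 windows for the 32 genes, 32851 for all). The 12 genes had a median log2 fold change of −0.17 over 6 arrays and −0.01 over 5. The 18 measured genes without a match in these windows had 0.10 and 0.15. Whether a match goes with the fold change was not tested. Matches of other members are shown with the bases around them, since they differ in the free middle letters and in strand.
Prdx1 (chr4:116685460-116685480, plus strand): gaaagcGCtgaGTCAtccccc
Me1 (chr9:86695906-86695926, minus strand): ccgccgTGACtcaGCgcttct
Ugdh (chr5:65435960-65435980, minus strand): agcccgTGACttaGCtggagc
Txnrd1 (chr10:82859108-82859128, plus strand): atttttGCtttGTCAttctga
G6pdx (chrX:74428923-74428943, minus strand): gggtcaGCtcaGTCAaagcac
A match is a run of letters only, and binding of NRF2 was not measured.

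The other genes of the pathway, taken from 4 lists of non-members, gave no gene past an adjusted p under 0.05 in either comparison. All 13 regulators of NRF2 were measured, with a median log2 fold change of −0.17 over 6 arrays and 0.01 over 5, and none reached an unadjusted p under 0.05. Nfe2l2, the gene of NRF2, stood at 1.28, 0.60 and 0.71 on captopril replicates 2, 3 and 4, against 0.82, 2.16 and 1.70 on water replicates 2, 3 and 4. Its groups overlapped, and the log2 fold change was −0.70 (SE 0.39, limma adjusted p = 0.632) over 6 arrays and −0.40 (SE 0.31) over 5. Keap1, its repressor, stood at 1.22, 1.16 and 1.48 on captopril replicates 2, 3 and 4, against 1.11, 0.71 and 1.07 on water replicates 2, 3 and 4. The captopril arrays of Keap1 were all higher by a small amount (0.32, SE 0.23, limma adjusted p = 0.647 over 6 arrays, and 0.19, SE 0.16 over 5). Bach1, a repressor that competes at the same elements, gave −0.24 (SE 0.34) over 6 arrays and, with the opposite sign, 0.11 (SE 0.18) over 5. Btrc, a subunit of a ligase that marks NRF2 for decay, gave −0.39 (SE 0.23) and −0.31 (SE 0.17), and the Bach1 relative Bach2 gave 0.21 (SE 0.21) and 0.25 (SE 0.15).

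Of 32 other NRF2 targets and conjugating enzymes 28 were measured, with medians of 0.06 over 6 arrays and 0.19 over 5. No gene of this list reached an unadjusted p under 0.05 over 6 arrays, and without water replicate 3 there were 4 higher (12.1% of all genes) and 2 lower (6.98%), shares near those of all genes. Akr1c13, an aldo-keto reductase, stood at −2.44, −2.22 and −2.04 on captopril replicates 2, 3 and 4, against −2.72, −2.62 and −2.88 on water replicates 2, 3 and 4. Its groups did not overlap (0.51, SE 0.22 over 6 arrays, and 0.56, SE 0.17, limma adjusted p = 0.161 over 5). Over 6 and 5 arrays Htatip2 gave 1.96 (SE 1.13) and 0.48 (SE 0.15), and the NADPH source Idh1 gave 0.36 (SE 0.94) and, with the opposite sign, −0.83 (SE 0.30). Pir gave −0.44 (SE 0.21) and −0.41 (SE 0.16), and Trib3 gave −0.66 (SE 0.29) and −0.45 (SE 0.21). Slc7a11, the cystine carrier that supplies glutathione synthesis, was well above background on 2 of the 6 arrays and was not tested. Its level was −4.63, −4.44 and −4.72 on captopril replicates 2, 3 and 4, against −5.55, −6.75 and −7.04 on water replicates 2, 3 and 4. All captopril arrays lay above all water arrays, but signals this close to background give no reliable size.

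Of 17 other glutathione genes 16 were measured, with medians of 0.01 over 6 arrays and 0.05 over 5, and 1 was higher and 1 lower at an unadjusted p under 0.05 over 5 arrays, where 12.1% and 6.98% of all genes were. These were Hagh, a hydrolase of the glyoxalase pathway (0.38, SE 0.16, against 0.36, SE 0.21 over 6 arrays), and Chac2, which cleaves glutathione (−0.86, SE 0.36, against −0.54, SE 0.42 over 6 arrays). Ggct, which acts on the products of glutathione breakdown, gave −0.64 (SE 0.36) over 6 arrays and −0.27 (SE 0.20) over 5. The glutaredoxin Glrx gave 0.76 (SE 0.44) and 0.38 (SE 0.34), and Glrx3 gave 0.08 (SE 0.32) and 0.39 (SE 0.18). Of 23 other thioredoxin, peroxiredoxin and superoxide genes 22 were measured, with medians of 0.02 and 0.16. At an unadjusted p under 0.05 there was 1 lower over 6 arrays (4.91% of all genes), and 1 higher and 2 lower over 5 (12.1% and 6.98%). Msra, which repairs oxidised methionine, stood at −1.44, −1.65 and −1.46 on captopril replicates 2, 3 and 4, against −0.82, −0.77 and −0.94 on water replicates 2, 3 and 4. All captopril arrays were lower than all water arrays, and the log2 fold change was −0.67 (SE 0.21, limma adjusted p = 0.551) over 6 arrays and −0.64 (SE 0.15, limma adjusted p = 0.099) over 5. Over 6 and 5 arrays Txnl1 gave −0.18 (SE 0.43) and −0.67 (SE 0.19), Txn2, the mitochondrial thioredoxin, gave 0.20 (SE 0.28) and 0.44 (SE 0.17), and Sesn1 gave −0.46 (SE 0.22) and −0.35 (SE 0.16). Txnip, which binds and inhibits thioredoxin, gave 1.02 (SE 0.60) over 6 arrays and 0.28 (SE 0.15) over 5. Txnip stood at 0.11 on water replicate 3, against 2.37 and 2.34 on water replicates 2 and 4.

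All 15 markers of undifferentiated germ cells and all 15 of fibroblast feeders were well above background on at least 3 arrays. The log2 of the summed feeder level was 7.27 to 7.55 on the captopril arrays and 7.39 to 8.26 on the water arrays, ranges that overlapped (two-sided exact permutation p = 0.3). The median feeder level, relative to each gene's own median, was −0.24 to −0.04 with captopril and 0.02 to 0.74 in water, and the ranges did not meet (two-sided exact permutation p = 0.1, which is the lowest value this design allows). The 0.74 was water replicate 3, and water replicates 2 and 4 were at 0.05 and 0.02. Over 6 arrays the feeder markers had a median log2 fold change of −0.49 (−0.03 for all genes), with 13 of 15 negative and 2 positive. Over 5 it was −0.30 (0.07 for all genes), with 10 of 15 negative and 5 positive. Of all genes 46.8% and 58.5% were positive. At an unadjusted limma p under 0.05, 6 were lower and 0 higher in each comparison (4.91% and 6.98% of all genes were lower). In 7 all captopril arrays were below all water arrays in each comparison (11.4% and 15.7% of all genes). In 0 and 3 they were all above (10% and 27.2%). The feeder median had the sign of Gclc and Gclm and the opposite sign of Nqo1. The part of the feeders in either result was not tested. The log2 of the summed germ cell level was 6.09 to 6.50 with captopril and 5.97 to 6.72 in water. Of the Sertoli markers 5 of 10 were measured, with Amh, Cldn11 and Fshr above background on no array, and of the Leydig markers 1 of 6, with Cyp11a1, Cyp17a1, Hsd3b1 and Lhcgr above background on none. All 6 macrophage markers on the array were measured, with a log2 summed level of 5.51 to 5.87 with captopril and 5.33 to 6.08 in water. Itgam made up most of this sum, with a mean log2 level of 5.59 against 0.29 for the next highest, Csf1r. The sum therefore describes Itgam rather than the list.

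**Figure D5:**
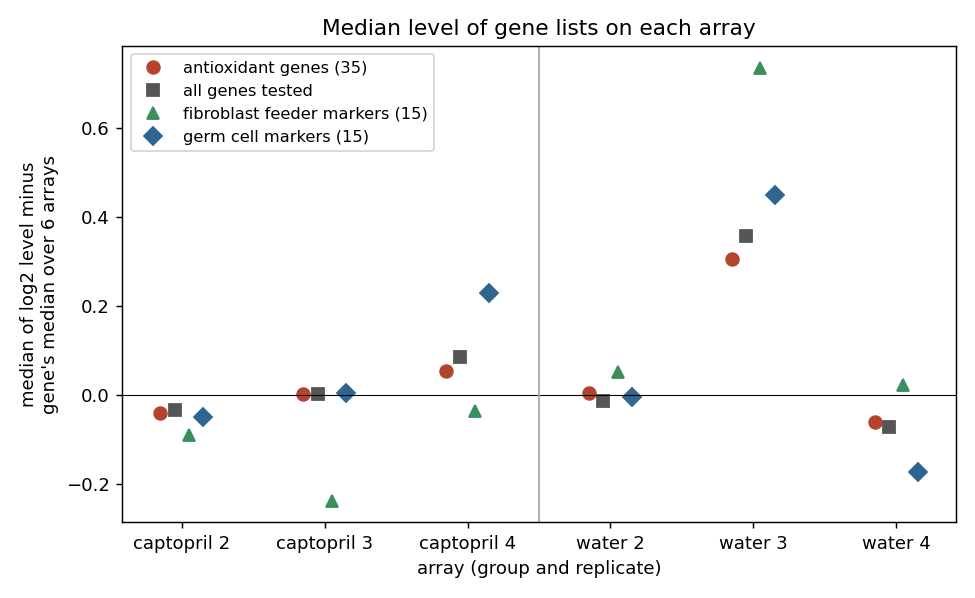
Median over each list of log2 level minus the gene's median over 6 arrays, on each array, with captopril left of the line and water right of it. The antioxidant genes follow all genes tested on every array, up to 0.31 and 0.36 on water replicate 3, while the feeder markers are below 0 on the captopril arrays and above 0 on the water arrays.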

How the data were processed

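Total RNA of 6 cultures was hybridised to single-colour Agilent arrays, whose small number limits precision. The deposited intensity values are spot signals from which the program Agilent Feature Extraction subtracted the background. Its version is 11.5.1.1 per the file headers but 10.7 per the submitters' processing notes. The authors' deposited series table holds log2 values, used as an alternative only. They equal log2 of the processed signal minus a constant per array (r = 1, 100% of single-spot probes within 0.01). Column medians were −3.72, −3.63 and −3.62 for captopril replicates 2, 3 and 4. For water replicates 2, 3 and 4 they were −3.80, −4.24 and −3.79. Scale, direction and centring are therefore known. All arrays were on 1 slide with 1 scan date per the file headers, and between 52.2% and 60.5% of spots were well above background.

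Log2 of the processed signal was centred on the 75th percentile of each array, without control and outlier spots, and spots of a probe were averaged. Probes were named through RefSeq (GRCm38.p6), which gave 26762 of 55681 probes 1 symbol. A gene was represented by its brightest probe after a filter for signal well above background (3 arrays or more). Captopril was tested against water in limma 3.58.1 under R 4.3.3 (two-sided, Benjamini-Hochberg over 14876 genes, threshold 0.05), and the code was tested on simulated data. Plots used Python 3.11.15 and matplotlib 3.10.9. Other flags and raw signals served for filters and for normexp with an offset of 50.

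The genes, lists and tests, and the comparison without water replicate 3, were chosen with earlier results of these data known. Values on every array are given for 11 genes fixed by name, and for the 8 of smallest p in each comparison. From the 4 lists of other pathway genes, the 3 of smallest p in each comparison are named. The alternatives were other scalings, background corrections, filters, probe rules and variance models, the series table, the slide row and the replicate number as blocks, and each array left out.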

Additional observations from a re-analysis of the deposited data

How the results depend on the processing

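Over 6 arrays, 0 genes and 0 members passed the adjusted threshold under each alternative run that kept water replicate 3, the replicate block included. That block left the members' median at −0.004 and gave Nqo1 1.24 (limma adjusted p = 0.511). Deviations of same-numbered arrays from their group means had r of −0.02, 0.02 and −0.19 for replicates 2, 3 and 4. The highest r, 0.25, was between captopril replicate 2 and water replicate 4. Water replicate 3 enters the mean of the water group and so shapes all its deviations. These r therefore cannot settle whether the numbers mark pairs, and the main comparison did not take them as pairs. Leaving out each array in turn gave 0 to 91 genes, 0 to 1 member and a median of −0.10 to 0.09, the 91 genes and the member being those without water replicate 3. Scaling by the median of each array shifted all genes to a median of −0.33 and the members to −0.31. The slide row as a block, and row 2 alone, gave a members' median of 0.14 against 0.11 for all genes. Named members changed sign at most 6 times under 1 setting, and none of these values had passed the test. Without water replicate 3, the 91 genes and 1 member became 39 and 0 with median scaling (members' median −0.039), 0 and 0 with quantile normalization (0.022) and 0 and 0 without a filter on dim probes. The members called were 2 with a filter on all 5 arrays, with the mean of a gene's probes, and with a variance trend and robust eBayes. Leaving out a further array gave 0 to 36 genes, 0 members and a median of 0.014 to 0.14. A block by slide row rests on water replicate 4 alone. Dim genes limit what is seen: Gsta1 and Gsta2 were not well above background on any array, nor was Slc7a11 on more than 2.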
